A study of Mus musculus with 20 samples.

Results

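*Tcf7l2*, *Lhx9*, *Lef1*, *Ntng1*, *Prkcd* and *Calb2* are 6 genes used as markers of the thalamus and the habenula, and they were taken by symbol from the 47729 genes counted in each library. Reads of mRNA were counted in cortex and hippocampus of 10 C57Bl/6J mice at P7, with 1 library per tissue and mouse, so that 20 libraries form 4 groups of 5: WT cortex, Ube3aOE cortex, WT hippocampus and Ube3aOE hippocampus. Mice 1 to 5 are WT, and mice 6 to 10 are Ube3aOE, which carry additional copies of *Ube3a* on a bacterial artificial chromosome transgene with its flanking sequence. Both sexes were used in each genotype, and each library comes from 1 animal. Each tissue is a mixture of cell types in which fewer cells of a type and less RNA per cell cannot be told apart.

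The thalamus relays sensory and motor signals to the cortex, and the habenula, which lies above it, connects the forebrain with monoaminergic nuclei of the midbrain. Both lie directly beneath the hippocampus. Several genes that mark their neurons in the postnatal brain belong to general families: transcription factors of the Wnt pathway, LIM homeodomain factors, cell surface proteins of thalamocortical axons, kinases and calcium-binding proteins. Some of the same genes are also used by neurons of the hippocampus and cortex, such as calretinin (*Calb2*) in interneurons and Cajal-Retzius cells.

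Libraries held between 14191093 and 16752326 reads on genes. *Ube3a* itself was at 142 to 194 CPM (the count of a gene scaled to the total of its library) in Ube3aOE hippocampus against 57.3 to 77.0 in WT hippocampus, and at 129 to 182 against 53.5 to 69.7 in cortex, so each library matched its genotype label. The expression of sex-linked genes went against the labelled sex in 4 libraries of 2 WT mice. The labelled tissues matched their markers. All 5 genes of the hippocampal fields (*Zbtb20*, *Spink8*, *Prox1*, *C1ql2* and *Dsp*) passed the test as higher in hippocampus, and 4 of 5 neocortical genes passed as lower there. Levels below are CPM scaled by the trimmed mean of M values (TMM CPM), which compare 1 gene between libraries, and CPM per kb of exon where genes are compared with each other.

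2 of the 6 genes, *Tcf7l2* and *Lef1*, encode factors of the TCF/LEF family that bind DNA through the core letters CTTTG, which read as CAAAG on the other strand. The stretches around this core before the starts of 3 members are shown as sequence only. They are from RefSeq (GRCm38.p6), 5′ to 3′ on the strand of the gene, with the core in capitals, and lie at chr19:55741687-55741716 (plus strand, *Tcf7l2*), chr1:138842604-138842633 (minus strand, *Lhx9*) and chr3:110143544-110143573 (minus strand, *Ntng1*).
Tcf7l2: tctcccggcgccCAAAGgatcattgttggc
Lhx9: agtcccccacccCTTTGtaatgtttgtccc
Ntng1: tcatcaaacggaCTTTGggtgcgtcgcgtc

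The 250 bases before the start were searched on both strands in the 10 windows that RefSeq gives for 5 of the members, without *Calb2*. The core was in 10 of these 10 windows, and it was in 48.6% of all 32851 windows of the same length. Windows of 1 gene can overlap: *Lef1* gave 4 of the 10, and 1 of its matches was counted in 2 windows. *Prkcd* had the core in 2 of its 2 windows, and a link of the core with the levels of the members was not tested. The longer form ATCAAAG, which contains the core, was in 0 of the 10 and in 3.21% of all windows. The letters TAATTA, bound by many homeodomain factors, were in 0 of the 10 and in 4.84% of all windows. A match is only a run of letters.

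*Tcf7l2* encodes a transcription factor that acts with beta-catenin and is abundant in postnatal thalamic neurons. The gene (ENSMUSG00000024985) lies on chromosome 19 from 55741820 to 55933654 in GRCm38. In cortex it was at 1.28, 1.98, 2.78, 2.56 and 2.73 CPM in WT mice 1 to 5. In Ube3aOE mice 6 to 10 the cortex gave 2.09, 2.71, 2.57, 2.13 and 2.72. All 10 cortex libraries were thus low, with 20 to 44 reads each. In WT hippocampus it was at 4.45, 2.84, 4.27, 226 and 4.30 CPM in mice 1 to 5, and in Ube3aOE hippocampus at 4.80, 270.3, 46.5, 6.15 and 561 CPM in mice 6 to 10. The hippocampus of mice 4, 7, 8 and 10 stood apart from the other 6, which lay between 2.84 and 6.15. These 4 libraries come from both genotypes, 1 from a WT mouse and 3 from Ube3aOE mice.

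*Lhx9* encodes a LIM homeodomain transcription factor of the developing diencephalon and medial pallium. The gene (ENSMUSG00000019230) lies on chromosome 1 from 138825186 to 138848577. The hippocampus held 24.5, 15.4, 25.9, 54.5 and 24.7 CPM in WT mice 1 to 5 and 27.9, 64.8, 34.2, 19.3 and 119.9 in Ube3aOE mice 6 to 10. Every hippocampus library had at least 250 reads on *Lhx9*. In cortex the WT mice had 0.0639, 0.147, 0.581, 0.448 and 0.373 CPM, from 1 to 9 reads. Ube3aOE cortex had 0.253, 0.258, 5.97, 4.02 and 0.0633 CPM in mice 6 to 10, and the cortex of mice 8 and 9, with 100 and 66 reads, lay above the other 8.

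*Lef1*, the second TCF/LEF factor, is known from the dentate gyrus and its progenitors as well as from the thalamus. The gene (ENSMUSG00000027985) lies on chromosome 3 from 131110471 to 131224356, and its exons overlap those of *Gm43352* on the other strand. In hippocampus it was at 7.85, 4.44, 6.92, 23.7 and 7.66 CPM in WT mice 1 to 5 and at 8.70, 35.05, 9.53, 2.82 and 48.4 in Ube3aOE mice 6 to 10. The hippocampus of mice 4, 7, 8 and 10 again lay above the other 6, though mouse 8 only narrowly. In cortex the values were 3.07, 2.86, 4.07, 4.03 and 4.53 in WT and 4.36, 3.42, 7.16, 5.73 and 4.37 in Ube3aOE mice, highest in mice 8 and 9.

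*Ntng1* encodes netrin-G1, a membrane-anchored protein of thalamocortical axons. The gene (ENSMUSG00000059857) lies on chromosome 3 from 109780040 to 110144011. Its level in hippocampus was 35.04, 30.8, 27.8, 77.7 and 17.5 CPM in WT mice 1 to 5 and 23.1, 111, 50.8, 31.8 and 185 in Ube3aOE mice 6 to 10. The order of the 4 highest hippocampus libraries, mouse 10, then 7, 4 and 8, was the same for *Tcf7l2*, *Lhx9*, *Lef1* and *Ntng1*. In cortex it was at 9.78, 20.0, 12.6, 8.39 and 8.82 CPM in WT and at 9.04, 7.99, 41.9, 33.6 and 8.36 in Ube3aOE mice, so the cortex of mice 8 and 9 again lay above the other 8.

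*Prkcd* encodes protein kinase C delta, which marks relay neurons of the sensory thalamus in the adult. The gene (ENSMUSG00000021948) lies on chromosome 14 from 30595354 to 30626210. In hippocampus it was at 45.4, 34.2, 44.2, 46.4 and 54.5 CPM in WT mice and at 52.1, 41.8, 39.7, 27.5 and 43.4 in Ube3aOE mice. Mice 4, 7, 8 and 10, between 39.7 and 46.4, lay inside the range of the other 6, which was 27.5 to 54.5. In cortex it was at 32.3, 41.3, 30.3, 33.5 and 29.1 CPM in WT and at 31.8, 36.8, 29.8, 34.1 and 28.9 in Ube3aOE mice. *Prkcd* therefore varied least of the 6 genes within a tissue, by 1.98-fold between the lowest and the highest hippocampus library and by 1.43-fold in cortex, against 198-fold for *Tcf7l2* in hippocampus and 94.2-fold for *Lhx9* in cortex, a ratio whose lower value rests on 1 read.

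*Calb2* encodes calretinin, an EF-hand calcium-binding protein of midline thalamic and habenular neurons, interneurons and Cajal-Retzius cells. The gene (ENSMUSG00000003657) lies on chromosome 8 from 110137502 to 110168210. The hippocampus gave 107, 90.1, 109.7, 197 and 97.2 CPM in WT mice 1 to 5 and 101, 139, 104, 114 and 279.7 in Ube3aOE mice 6 to 10. Mice 10, 4 and 7 were highest, while mouse 8 lay among the others. In cortex it was at 27.7, 30.1, 41.2, 31.2 and 29.6 CPM in WT and at 21.4, 23.97, 80.4, 65.8 and 23.0 in Ube3aOE mice, once more highest in mice 8 and 9.

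**Figure D1:**
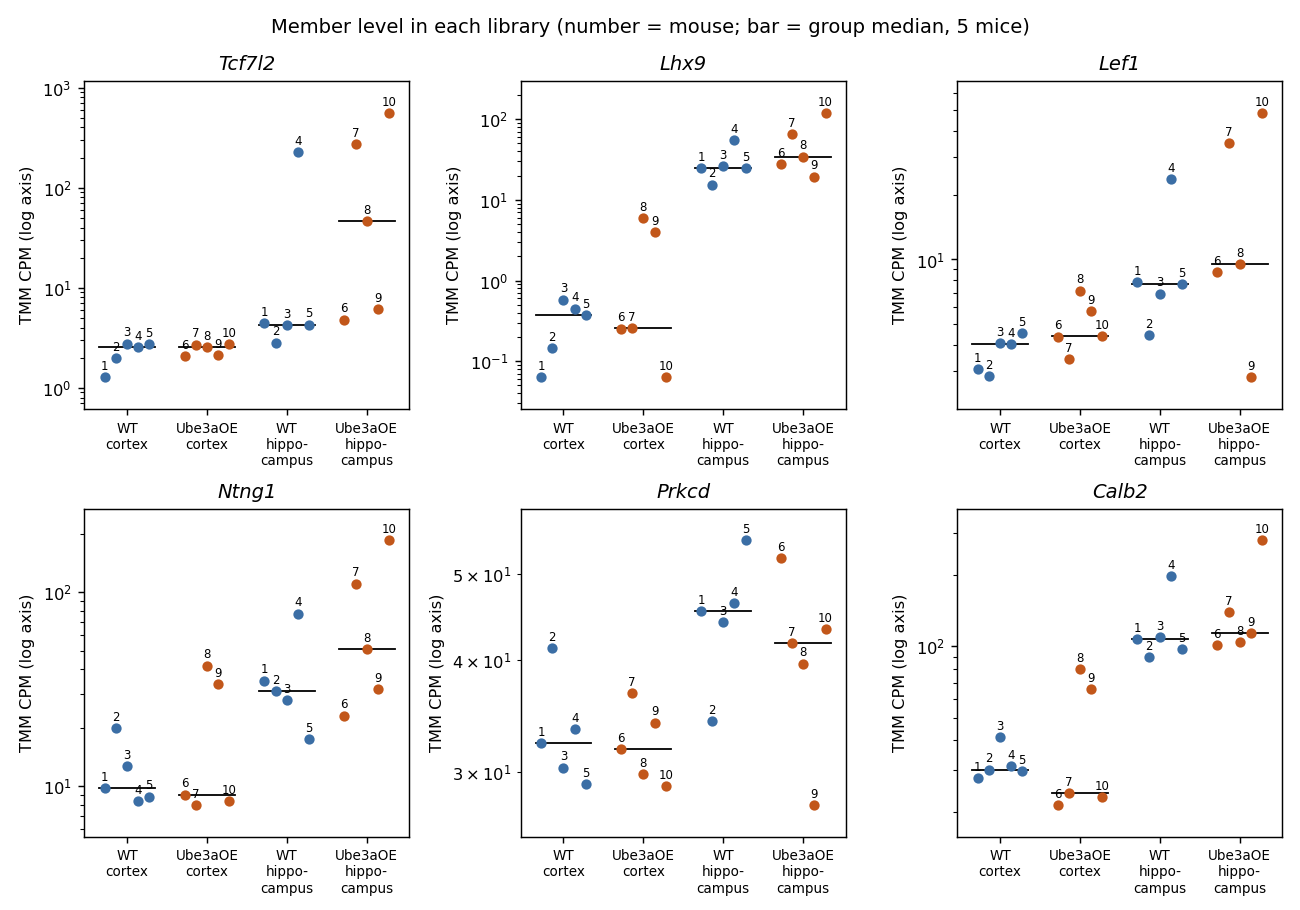
TMM CPM of each member (log axis) in the 20 libraries, by genotype and tissue; points are libraries, numbers are mice and bars are group medians of 5 mice. The hippocampus of mice 4, 7, 8 and 10 stands above the others for Tcf7l2, Lhx9, Lef1 and Ntng1, the cortex of mice 8 and 9 for Lhx9, Lef1, Ntng1 and Calb2, and Prkcd shows neither pattern.

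Per kb of exon, *Calb2* was the most abundant member in both tissues, with a median of 62.3 CPM per kb in hippocampus and 17.1 in cortex. *Prkcd* followed with 7.90 and 5.78, and *Ntng1* with 4.05 and 1.14. In hippocampus *Lhx9* (2.84 CPM per kb), *Lef1* (0.941) and *Tcf7l2* (0.624) came next. In cortex the order at the end was *Lef1* (0.480 CPM per kb), *Tcf7l2* (0.292) and *Lhx9* (0.0332). The hippocampus ranges of neighbours in this order overlapped, except for *Calb2* and *Prkcd*, and in cortex only those of *Tcf7l2* and *Lhx9* overlapped. In the hippocampus of mouse 10, *Tcf7l2* reached 63.9 CPM per kb and was second only to *Calb2*, at 160.5 CPM per kb.

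The regions were compared over all 20 libraries to see which members belong to the hippocampus or the cortex at P7. This fit takes the libraries as independent, although each mouse gave both tissues, and a fit paired by mouse is given below. All 6 members passed the test as higher in hippocampus (edgeR quasi-likelihood test, Benjamini-Hochberg adjusted p under 0.05), where 50.9% of all genes passed in either direction and 25.3% as higher. On the log2 scale the difference of hippocampus minus cortex was largest for *Lhx9*, at 5.53 (SE 0.60, adjusted p = 9.06e-07), and *Tcf7l2*, at 5.29 (SE 1.14, adjusted p = 0.00104). It was 1.84 for *Calb2* (SE 0.28), 1.83 for *Ntng1* (SE 0.45), 1.75 for *Lef1* (SE 0.44) and 0.38 for *Prkcd* (SE 0.10), with edgeR adjusted p values between 3.70e-05 and 0.00295. Within mice, hippocampus was above cortex in 10 of 10 mice for *Tcf7l2*, *Lhx9* and *Calb2*, in 9 for *Lef1* and *Ntng1* and in 8 for *Prkcd*. The median ratio of hippocampus over cortex was 3.18 for *Tcf7l2* (1.43 to 206), 3.58 for *Calb2* (1.29 to 12.1), 2.38 for *Ntng1* (0.946 to 22.2), 1.85 for *Lef1* (0.492 to 11.1) and 1.40 for *Prkcd* (0.809 to 1.88). It was largest for *Lhx9*, at 107.8 (4.81 to 1893), where the highest ratio rests on 1 read in cortex.

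The size of these differences depended on the libraries that stood apart. The hippocampus libraries of mice 4, 7, 8 and 10 were picked in part on *Tcf7l2*. The cortex libraries of mice 8 and 9 were the highest for *Lhx9*, *Lef1*, *Ntng1* and *Calb2*. Leaving them out thus moves the members by construction, and the p values that follow are no separate test of the regions. Without the hippocampus of mice 4, 7, 8 and 10 and the cortex of mice 8 and 9, a choice made after the values were seen, 41.9% of all genes passed in either direction. The difference was then 6.48 for *Lhx9* (edgeR adjusted p = 3.22e-10), 1.94 for *Calb2* and 1.46 for *Ntng1*. For *Tcf7l2* it fell to 0.96 (SE 0.18, edgeR adjusted p = 0.000408) and for *Lef1* to 0.68 (edgeR adjusted p = 0.0223), and for *Prkcd*, at 0.35, the adjusted p was 0.0685. Without the hippocampus libraries alone, where 40.1% of all genes passed, the difference was 4.77 for *Lhx9*, 1.49 for *Calb2*, 0.98 for *Tcf7l2* and 0.36 for *Prkcd*, all past the threshold. In that fit *Ntng1*, at 0.83 (edgeR adjusted p = 0.106), and *Lef1*, at 0.52 (edgeR adjusted p = 0.0680), did not pass.

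**Figure D2:**
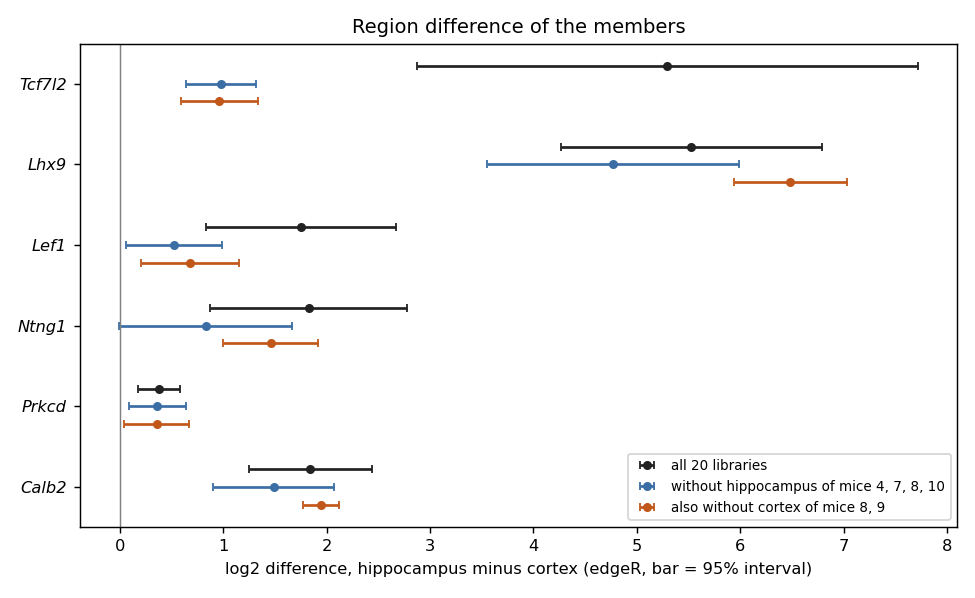
Difference of hippocampus minus cortex on the log2 scale for each member, from edgeR; points are estimates and bars 95% intervals, with all 20 libraries, without the hippocampus of mice 4, 7, 8 and 10, and also without the cortex of mice 8 and 9. Tcf7l2 moves from 5.29 to 0.98 and 0.96, and Lhx9 stays above 4.7 in all 3 fits.

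The members' baseline in hippocampus was therefore read from the 6 libraries outside mice 4, 7, 8 and 10, beside the 8 cortex libraries outside mice 8 and 9. *Lhx9* lay between 15.4 and 27.9 CPM in these hippocampus libraries and between 0.0633 and 0.581 in these cortex libraries. *Calb2* lay between 90.1 and 114 CPM in hippocampus and between 21.4 and 41.2 in cortex, also without overlap. *Tcf7l2*, at 2.84 to 6.15 against 1.28 to 2.78 CPM, was low in both. Its ranges were only just apart, with 2.84 CPM from 46 reads in hippocampus and 2.78 from 43 in cortex. How many of all genes do not overlap in these libraries was not counted, so the lack of overlap is a description only. In the same libraries 41.9% of all genes passed the region test. *Ntng1* (17.5 to 35.04 against 7.99 to 20.0), *Lef1* (2.82 to 8.70 against 2.86 to 4.53) and *Prkcd* (27.5 to 54.5 against 28.9 to 41.3) overlapped between the tissues. For *Lef1* and *Prkcd* the overlap came from the hippocampus of mice 2 and 9, in which lists of other regions also moved, as given below. In the other 4 hippocampus libraries *Lef1* was at 6.92 to 8.70 CPM and *Prkcd* at 44.2 to 54.5, above these 8 cortex libraries. *Prkcd*, *Calb2* and *Ntng1* were thus present at 7.99 CPM or more in every library of both tissues.

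Other thalamic and habenular genes were set beside the members. The thalamus list held 12 genes. *Gbx2* and *Shox2*, homeobox genes of thalamic nuclei, did not pass the filter on low counts, and the hippocampus of mice 4, 7, 8 and 10 was picked on them and on *Tcf7l2*. Of the 10 other genes, 6 were higher in each of these 4 libraries than in all other hippocampus libraries: *Slc17a6*, the vesicular glutamate transporter VGLUT2, the zinc finger genes *Zic1* and *Zic4*, and *Synpo2*, *Amotl1* and *Ptpn3*. For *Slc17a6* the margin was narrow, with 103.1 CPM as the lowest of the 4 and 102.4 as the highest of the other 6. Over all genes tested, 1.37% had this pattern, and among the members 4 of 6 did, *Tcf7l2* included, and no test was made. The summed level of the list was 275 to 1088 CPM in these 4 libraries and 181 to 222 in the other 6. *Gbx2* and *Shox2*, the genes of the list at or near 0 in cortex (0 to 0.244 CPM together), summed to 11.9 CPM in mouse 4, 23.6 in mouse 7, 2.26 in mouse 8 and 38.9 in mouse 10, and to 0.0617 to 0.641 in the other 6 hippocampus libraries.

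The habenula genes followed the members in fewer libraries. *Pou4f1*, a homeobox gene of habenular neurons, was at 11.9 CPM in the hippocampus of mouse 10 and at 1.95 in mouse 4, and at 0 to 0.174 in the other 8, which include mouse 7 at 0.0603. *Gpr151*, a receptor of habenular neurons, was at 14.4 CPM in mouse 10 and 2.93 in mouse 4, and at 0.241 in mouse 7 and 0.477 in mouse 8. Of the 8 habenula genes, only *Irx2* was higher in all of mice 4, 7, 8 and 10 than in the other 6. *Irx2* did not pass the filter on low counts, and its lowest value in the 4 was 0.417 CPM against at most 0.384. Of the 4 habenula genes past the filter, 0 had this pattern. The summed level of the list was 68.9 to 197 CPM in mice 4, 7, 8 and 10 and 55.8 to 119.8 in the others. *Nwd2* alone was at 50.8 to 120 CPM in hippocampus. *Calb2* ranked mouse 4 above mouse 7 (197 against 139 CPM), as did *Pou4f1* and *Gpr151*, whereas *Tcf7l2*, *Lhx9*, *Lef1* and *Ntng1* ranked mouse 7 above mouse 4.

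**Figure D3:**
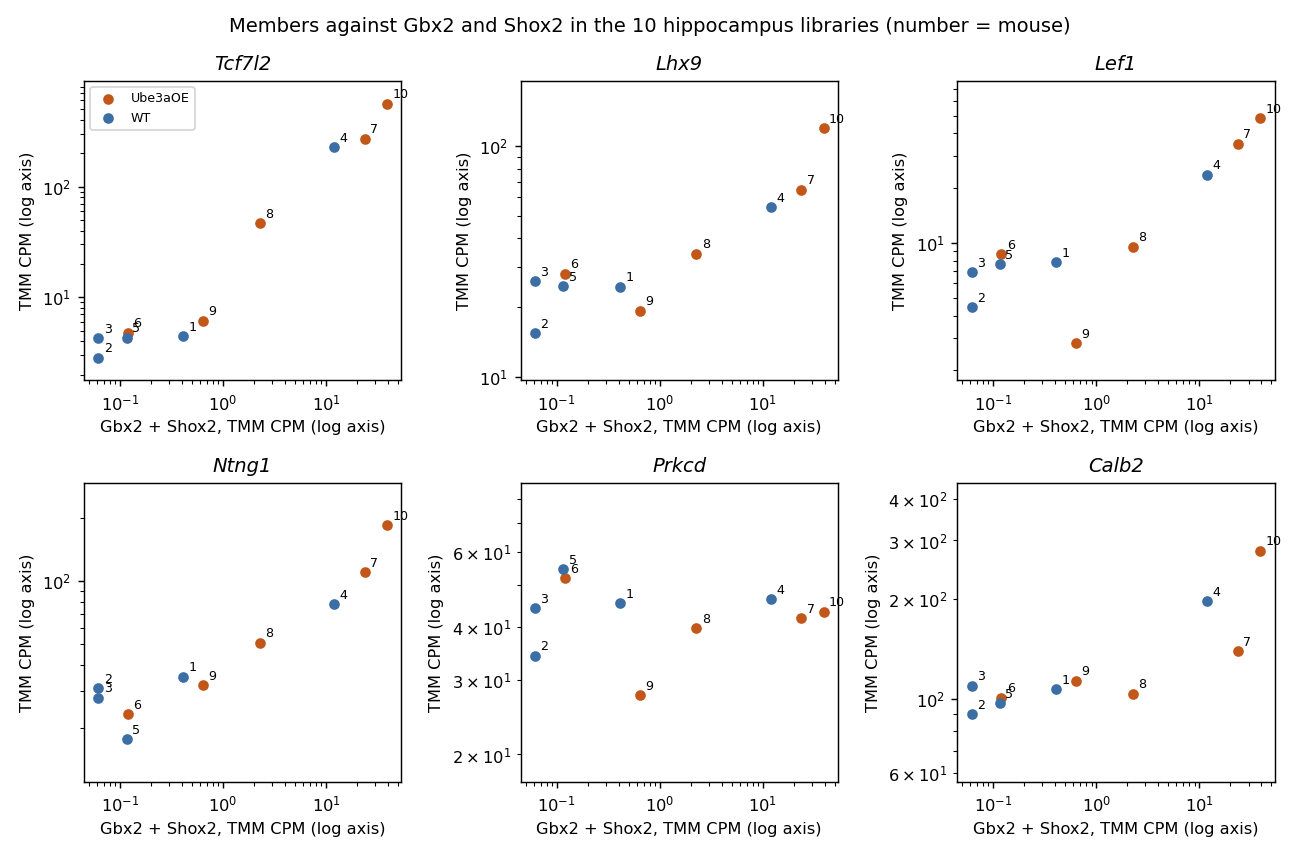
TMM CPM of each member against the sum of Gbx2 and Shox2 (both log axes) in the 10 hippocampus libraries; points are libraries, numbers are mice and colours are genotypes. Tcf7l2 spans 2.84 to 561 CPM, while Prkcd stays between 27.5 and 54.5.

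Straight lines of CPM on the sum of *Gbx2* and *Shox2* over the 10 hippocampus libraries, a reference chosen after the values were seen, describe how the members differ from each other. Each additional CPM of the sum went with 13.8 CPM of *Tcf7l2* (SE 0.76), 4.01 of *Calb2* (SE 0.71), 3.91 of *Ntng1* (SE 0.20), 2.32 of *Lhx9* (SE 0.17) and 1.13 of *Lef1* (SE 0.063), and with 0.0117 of *Prkcd* (SE 0.21). The level of the line where the sum is 0 was 4.69% of the mean for *Tcf7l2* (SE 10.0), 43.2% for *Lef1* (SE 6.04), 48.2% for *Ntng1* (SE 4.99), 55.8% for *Lhx9* (SE 6.24), 76.6% for *Calb2* (SE 7.86) and 99.8% for *Prkcd* (SE 7.26). In CPM this level was 5.30, 6.71, 28.5, 23.0, 103 and 42.8 in the same order of genes. The lines rest on 4 libraries with a sum above 1 CPM, and share library and depth with the values they describe. The thalamus list as a whole was never below 181 CPM in hippocampus, so its line does not reach 0 within the data.

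Markers of other tissue also moved between hippocampus libraries. The choroid plexus list was at 1957 CPM in mouse 7 and 347 in mouse 9, against 8.64 to 33.3 in the other 8, with *Ttr* at 1896 and 323 CPM. The striatum list was at 669.6 CPM in mouse 9 and at 58.4 to 79.7 in the other 9, and *Lef1* (2.82 CPM) and *Prkcd* (27.5 CPM) were lowest in mouse 9. The interneuron list was also highest there, at 1007 CPM against 436 to 694. The dentate gyrus list was at 123 CPM in mouse 9 and 122 in mouse 2, against 224 to 289 in the other 8, and mouse 2 was second lowest for *Lef1* (4.44 CPM) and *Prkcd* (34.2 CPM). The neocortex list was highest in mouse 2, at 363 CPM against 146 to 220.0 in the other 9, and *Tcf7l2* (2.84 CPM), *Lhx9* (15.4 CPM) and *Calb2* (90.1 CPM) were lowest there. The part of these genes' tissues in the members' levels was not tested.

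In the cortex of mice 8 and 9 a different set of markers moved with the members. *Gbx2* and *Shox2* summed to 0.0597 and 0.244 CPM in these libraries, *Tcf7l2* was inside the range of the other 8, and 2 of the 12 thalamus genes, *Slc17a6* and *Plekhg1*, were higher in both than in all others. *Lhx9*, at 4.02 to 5.97 CPM against 0.0633 to 0.581, *Ntng1*, at 33.6 to 41.9 against 7.99 to 20.0, *Calb2*, at 65.8 to 80.4 against 21.4 to 41.2, and *Lef1*, at 5.73 to 7.16 against 2.86 to 4.53, lay above the other 8. Over all genes tested, 9.42% had this pattern, and *Lhx9*, which did not pass the filter on low counts, is not among those tested. The 2 libraries were set apart after the values were seen. The share is thus given for scale only, and no test was made. The Cajal-Retzius list summed to 219 to 228 CPM in mice 8 and 9 and 110.2 to 171 in the others, with 6 of 7 genes above all others (*Reln*, *Trp73*, *Lhx1*, *Lhx5*, *Ebf3* and *Ndnf*), or 4 of the 5 that passed the filter. The interneuron list summed to 661 to 672 CPM against 485 to 573, with 3 of 11 genes above (*Gad1*, *Gad2* and *Sst*), and the list of hippocampal fields to 75.6 to 77.2 against 25.0 to 52.4, with 3 of 5 genes above (*Prox1*, *Zbtb20* and *Spink8*), or 2 of 3 past the filter. The neocortex list was lower, at 479 to 554 CPM against 610.1 to 796, and the choroid plexus list was at 10.6 to 12.1 CPM against 2.18 to 5.16. The part of these cells in the members' levels was not tested.

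**Figure D4:**
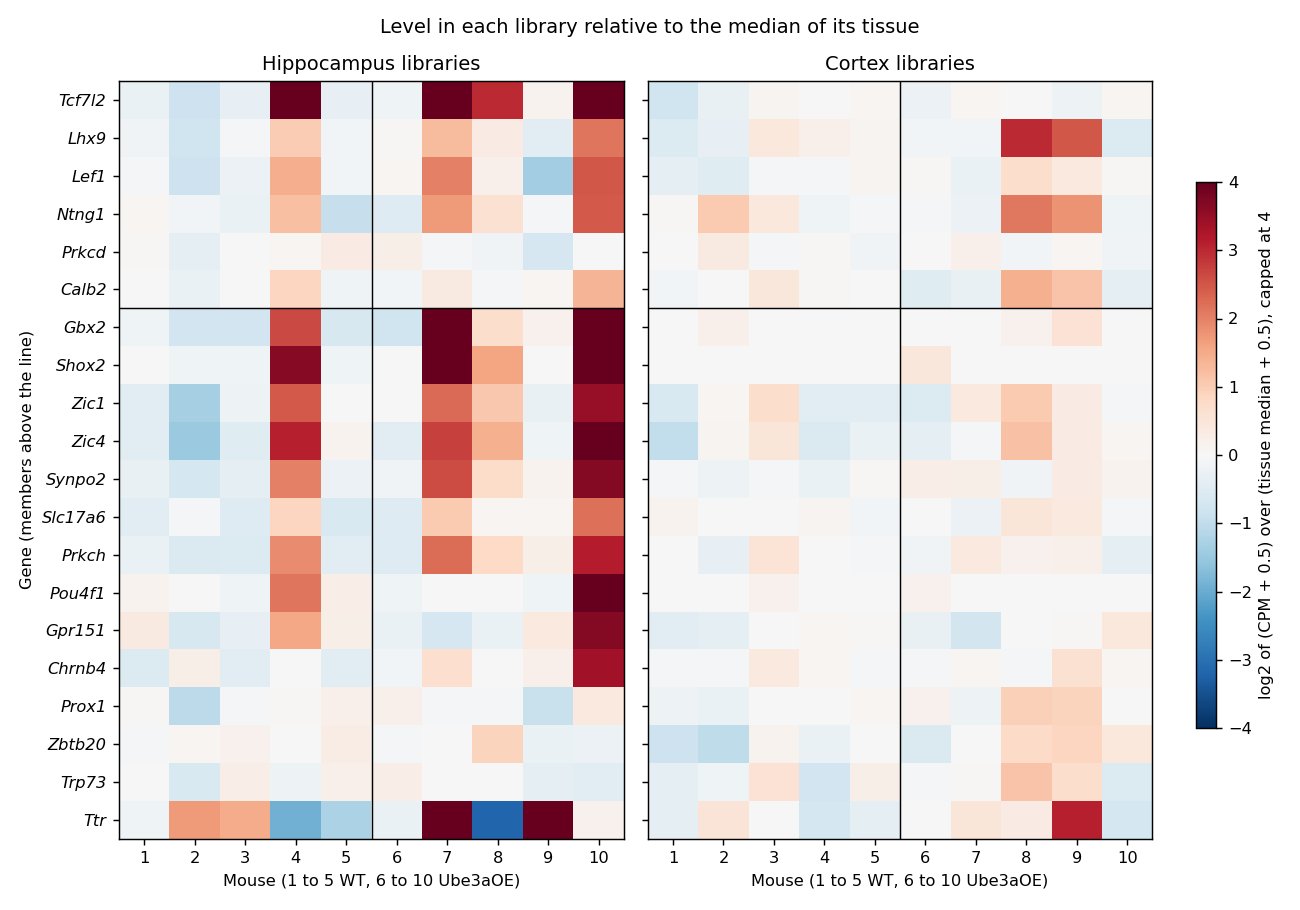
Level of the members (above the line) and of reference genes in each library relative to the median of the same tissue, as log2 of CPM plus 0.5 and capped at 4, by mouse; the vertical line parts WT from Ube3aOE mice. In the hippocampus of mice 4, 7, 8 and 10, Tcf7l2, Lhx9, Lef1 and Ntng1 are high together with Gbx2, Shox2, Zic1 and Zic4, while Calb2 is high in mice 4, 7 and 10 and at 104 CPM in mouse 8, and in cortex Lhx9, Ntng1 and Calb2 are high in mice 8 and 9, where Gbx2 and Shox2 stay below 0.25 CPM.

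Since the libraries of a tissue fell into separate sets, correlation between members is given within the larger set only, as a description over 6 hippocampus or 8 cortex libraries that share dissection and depth. In the 6 hippocampus libraries, log2 CPM of *Lef1* and *Prkcd* had a Pearson r of 0.967 (Spearman rho 0.829), and *Lhx9* had 0.772 with *Lef1* (rho 0.714) and 0.775 with *Prkcd* (rho 0.657). These 6 are not an even set: all 3 genes were lowest in mice 2 and 9, the libraries with the low dentate gyrus sum, at 2.82 to 4.44 CPM against 6.92 to 8.70 for *Lef1*, 27.5 to 34.2 against 44.2 to 54.5 for *Prkcd* and 15.4 to 19.3 against 24.5 to 27.9 for *Lhx9*. *Tcf7l2* had 0.834 with *Calb2* (rho 0.600), 0.456 with *Lhx9* (rho 0.200), -0.0115 with *Ntng1* (rho 0.200) and -0.178 with *Lef1* (rho 0.143). *Ntng1* had -0.428 with *Lhx9* (rho -0.600) and -0.455 with *Lef1* (rho -0.314). The common order of *Tcf7l2*, *Lhx9*, *Lef1* and *Ntng1* was thus seen across the 4 libraries that stood apart and not among the other 6. In the 8 cortex libraries, *Lhx9* had a Pearson r of 0.582 with *Calb2* (rho 0.667), and *Lef1* had -0.811 with *Prkcd* (rho -0.881), the opposite sign of their relation in hippocampus.

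The genes most like each member were those with the highest Pearson r of log2 CPM over the 10 libraries of a tissue, a measure of likeness that the libraries standing apart can set. In hippocampus, among 15220 genes, they were *Hspb1*, *Prkch* and *Zic4* for *Tcf7l2* (r from 0.979 to 0.984), *Cpne9*, *Vangl1* and *Zic1* for *Lhx9* (0.977 to 0.996), *Cables2*, *Cpne9* and *Ptpn3* for *Lef1* (0.972 to 0.979), and *B3glct*, *Zmat4* and *Scarf2* for *Ntng1* (0.976 to 0.979). *Prkch*, another protein kinase C gene, was at 17.6 to 90.9 CPM in mice 4, 7, 8 and 10 and at 6.42 to 11.5 in the other 6. *Cpne9*, a copine, was at 8.46 to 59.6 against 2.65 to 6.42 CPM, and its r with *Lhx9* was 0.955 among the other 6 alone. *Calb2* was most like *Kcnj5*, *Irx1* and *Zic5* (0.960 to 0.971). Among the other 6 alone the r of these genes with their member was lowest for *Irx1* with *Calb2* (0.429) and *Hspb1* with *Tcf7l2* (0.497), and it was 0.676 to 0.955 for the others named so far. *Prkcd* was most like *Arhgef25*, *Cpne4* and *Pxn* (0.965 to 0.971), which did not stand apart in mice 4, 7, 8 and 10. Their r with *Prkcd* was between 0.967 and 0.988 among the other 6, in which *Prkcd* was lowest in mice 2 and 9. All these genes were chosen over 10 libraries that include the 6, so r among the 6 is no separate check.

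In cortex, among 14947 genes, *Ntng1* was most like *Cbln4*, *Tekt5* and *Tmeff2* (r from 0.983 to 0.987), *Calb2* like *Htr2c*, *Cldn1* and *Nhlh2* (0.960 to 0.973), *Lhx9* like *Ntf3*, *Zfp146* and *Prnp* (0.958 to 0.967), and *Lef1* like *Sema3d*, *Prox1* and *Tor1aip1* (0.935 to 0.956). *Cbln4*, a secreted synaptic organiser, was at 41.8 to 64.9 CPM in mice 8 and 9 and at 2.77 to 15.4 in the other 8, *Ntf3*, the neurotrophin NT-3, at 12.4 to 19.2 against 3.58 to 6.26, and *Htr2c*, a serotonin receptor, at 24.3 to 25.9 against 3.98 to 12.4. *Tcf7l2* was most like *Rnf19a*, *Myeov2* and *Mnd1* (0.874 to 0.902) and *Prkcd* like *Zfp622*, *Bod1* and *1110012L19Rik* (0.934 to 0.945), none of which stood apart in mice 8 and 9. Without the 2 libraries farthest from the median of the member, r was 0.440 to 0.743 for *Tcf7l2* and 0.721 to 0.829 for *Prkcd*. *Tcf7l2* had only 20 to 44 reads in cortex. The highest r among 14947 genes over 10 libraries can be large for unrelated genes.

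The genotypes were compared within each tissue. In hippocampus 0 of 6 members passed the test (edgeR, adjusted p from 0.696 to 0.821), 0 of 6 had an unadjusted p under 0.05, and DESeq2 gave the same 2 counts. Of all genes, 0.00657% passed. The difference of Ube3aOE minus WT on the log2 scale was 1.87 for *Tcf7l2* (SE 1.73, 95% interval -2.09 to 5.84), 1.09 for *Ntng1* (SE 0.65, -0.40 to 2.58), 1.05 for *Lef1* (SE 0.78, -0.73 to 2.82), 0.87 for *Lhx9* (SE 0.55, -0.38 to 2.12), 0.29 for *Calb2* (SE 0.34, -0.48 to 1.06) and -0.14 for *Prkcd* (SE 0.16, -0.48 to 0.21). Exact permutation tests of CPM, two-sided with 5 mice against 5 and a smallest possible p of 0.00794, gave p values from 0.175 (*Tcf7l2*) to 0.508 (*Calb2*). Mean CPM of *Tcf7l2* was 178 ± 241 in Ube3aOE and 48.3 ± 99.2 in WT hippocampus (SD, n = 5), with a spread above the mean in both. The libraries of mice 4, 7, 8 and 10 were picked in part on *Tcf7l2*. They were also the highest for *Tcf7l2*, *Lef1* and *Ntng1*. Leaving them out lowers these levels by construction and leaves 2 Ube3aOE against 4 WT mice, so this fit is no test of the genotypes. In it the *Tcf7l2* difference was 0.47 (SE 0.24, edgeR adjusted p = 0.9998). Those of *Lef1* and *Ntng1* turned to -0.22 and -0.02, and 0% of all genes passed, *Ube3a* included. Mice 4 and 10 moved the differences most for the members other than *Prkcd*, which ranged from -0.23 without mouse 6 to -0.02 without mouse 9. Without mouse 4 the difference was 5.49 for *Tcf7l2* (95% interval 1.42 to 9.55, edgeR adjusted p = 0.596), 1.64 for *Lef1*, 1.54 for *Ntng1*, 1.24 for *Lhx9* and 0.55 for *Calb2*. Without mouse 10 it was 0.76 for *Tcf7l2* (-3.39 to 4.90), 0.52 for *Ntng1*, 0.47 for *Lef1*, 0.33 for *Lhx9* and -0.07 for *Calb2*.

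In cortex 0 of the 5 members that passed the filter on low counts passed the test (edgeR, adjusted p from 0.960 to 0.988), and 0 had an unadjusted p under 0.05, while DESeq2 gave 0 of 6 and 2 of 6. Of all genes, 0.00669% passed. *Lhx9* did not pass the filter. Its exact permutation p was 0.381, and the others lay between 0.103 (*Lef1*) and 0.706 (*Prkcd*). The log2 difference was 0.77 for *Ntng1* (SE 0.56, 95% interval -0.51 to 2.04), 0.43 for *Lef1* (SE 0.20, -0.01 to 0.87), 0.43 for *Calb2* (SE 0.41, -0.51 to 1.36), 0.10 for *Tcf7l2* (SE 0.21, -0.35 to 0.55) and -0.05 for *Prkcd* (SE 0.10, -0.26 to 0.17). Both cortex libraries that stood apart are Ube3aOE, and they were the 2 highest for *Calb2* and for *Ntng1*. Leaving them out lowers the Ube3aOE level of both genes by construction, so the values that follow are no test of the genotypes. Without them *Calb2* was at 21.4 to 23.97 CPM in 3 Ube3aOE mice and 27.7 to 41.2 in 5 WT mice. Its difference was then -0.49 (SE 0.12), and the edgeR adjusted p over all genes was 0.9999, in a fit where 0.00661% of all genes passed and 0 of 5 members did. *Ntng1* turned to -0.49 (SE 0.27). Without mouse 8 alone the difference was 0.31 for *Ntng1*, 0.26 for *Lef1* and 0.07 for *Calb2*.

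In the test of the interaction, whether the genotype effect differed between the tissues, 0% of all genes passed (edgeR, 0 of 15661, with 590 at an unadjusted p under 0.05, and 0 by DESeq2). For the members, the difference of the effects (hippocampus minus cortex, log2) ran from -1.81 for *Lhx9* (SE 1.42) to 1.78 for *Tcf7l2* (SE 2.40), with edgeR adjusted p values of 0.997 to 0.998. The width of the intervals differed between members. The 95% interval was -3.30 to 6.86 for *Tcf7l2* and -4.82 to 1.20 for *Lhx9*, for which a difference of several fold was not detectable, and -1.28 to 1.03 for *Calb2* and -0.49 to 0.32 for *Prkcd*.

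The families of the members were counted in the region comparison, in which 50.9% of all genes passed in either direction, 25.3% as higher, and the median difference over all genes was -0.01 (log2). Of 15 other genes of the TCF/LEF pathway, 5 were higher and 3 lower in hippocampus, with a median of 0.04, a share near that of all genes. *Ctnnb1*, which encodes beta-catenin, was higher by 0.40 and *Pygo1*, a coactivator, by 0.88, while *Tle3*, a corepressor, fell by 0.84 (edgeR adjusted p from 3.90e-09 to 6.97e-08). Of the close relatives of *Tcf7l2* and *Lef1*, *Tcf7l1* was higher by 0.38 (edgeR adjusted p = 0.00208), and *Tcf7* was at 0.15 (edgeR adjusted p = 0.267). No gene of this list stood apart in mice 4, 7, 8 and 10, and its sum was 1636 to 1693 CPM there against 1578 to 1781 in the others.

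Of 8 LIM homeodomain genes and cofactors tested, 3 were higher and 2 lower in hippocampus (median 0.42), led by *Lmx1a* at 4.82 and the Cajal-Retzius genes *Lhx1* at 2.19 and *Lhx5* at 2.03. Without the 6 libraries that stood apart, 3 of 8 were higher and 0 lower (median 0.05), with *Lmx1a* at 4.45. None of the 11 listed stood apart in the 4 hippocampus libraries, and *Lhx1* and *Lhx5* did in both cortex libraries. Of 4 genes of the netrin-G family and its ligands, 0 were higher and 2 lower (median -0.22): *Ntng2*, the paralog of *Ntng1*, fell by 0.38 and *Lrrc4c*, which encodes the netrin-G1 ligand, by 0.70 (edgeR adjusted p = 5.88e-05 and 9.84e-07). This count too is near the share of all genes that passed.

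Of 8 other protein kinase C genes, 4 were higher and 1 lower (median 0.21), with *Prkch* at 1.91 and *Prkcz* at -0.36. *Prkch*, the gene of this list that stood apart in the 4 hippocampus libraries, was at 0.53 (edgeR adjusted p = 0.0236) without the 6 libraries, and the counts of the list were then the same. Of 8 EF-hand genes tested, 4 were higher and 2 lower (median 0.58), with *Pvalb* (parvalbumin) at 2.47 (1.63 without the 6 libraries), *Necab2* at 1.25 and *Necab1* at -1.92. Of the thalamus list, 8 of 10 tested were higher and 1 was lower (median 1.06): *Zic4* was at 3.11, *Zic1* at 2.72 and *Synpo2* at 1.958, and *Ramp3* at -1.86. Without the 6 libraries, where 41.9% of all genes passed, 5 of 10 were higher and 1 was lower (median 0.45). *Zic1* was then at 1.22 (edgeR adjusted p = 0.00266), *Zic4* at 0.96 (0.0216) and *Synpo2* at 0.29 (0.0833), and all 3 overlapped cortex, with *Zic4* at 1.23 to 4.88 CPM in 6 hippocampus libraries against 0.703 to 2.84 in 8 cortex libraries. Of the habenula list, 2 of 4 tested were higher (*Gpr151* at 2.68 and *Irx1* at 1.65) and *Nwd2* was lower, at -1.06. Both higher values rested largely on the libraries that stood apart. Without them *Gpr151* was at 1.31 (edgeR adjusted p = 0.0419), from 0.247 to 1.02 CPM against 0 to 0.633, and *Irx1* at 0.62 (edgeR adjusted p = 0.196), from 0.556 to 1.09 CPM against 0.128 to 1.07. No gene of these lists passed the test of the genotypes in either tissue.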

How the data were processed

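The authors deposited 1 file of read counts per library, as whole numbers for 47729 genes without normalization. Per the labels, libraries were stranded mRNA, and the submitters' processing notes name HISAT2 2.1.0, HTSeq 0.11.2 and GRCm38 (mm10). The strand setting and annotation of the counting are not given in the sources used here. Positions and exon lengths came from GENCODE M21, which held 47224 of the identifiers.

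Genotype, tissue and mouse were taken from the labels. Counts were fitted in R 4.3.3 with edgeR 4.0.16 (TMM factors, filterByExpr, robust quasi-likelihood F test, Benjamini-Hochberg adjustment over all genes tested), and DESeq2 1.42.0 was an alternative, with Python 3.11.15, pandas 2.3.3, scipy 1.17.1 and matplotlib 3.10.9 for the rest. Genotypes were tested in 10 libraries of a tissue, and regions and the interaction in all 20. The fits were tested on simulated data: of 200 genes changed by 1 on the log2 scale, 83% were recovered for the genotypes in hippocampus, 88.5% in cortex and 94.5% for the regions, among 15220, 14947 and 15661 genes. The changed genes were picked at random. Libraries were drawn independently, with none standing apart and no pairing by mouse, so these shares do not give the recovery for the members. Correlations were taken over log2 CPM (prior count 2). A hippocampus and a cortex library of 1 number are from 1 animal, and their deviations from the group means correlated across genes at 0.150 to 0.248 in 9 mice and at -0.0374 in mouse 4.

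The members and lists were chosen with earlier results of these data known. Named genes are the members, the 3 genes most like each member per tissue, *Ube3a*, and up to 4 genes of each list past the threshold with the largest change. Other genes, among them those given for the libraries that stand apart and *Ctnnb1*, *Tcf7*, *Tcf7l1*, were named after their values were seen. Alternatives were no TMM factors, DESeq2, no filter on low counts, labelled sex, the mouse as a replicate block, all libraries together, other reference lists, each mouse left out, and the fits without the libraries that stand apart, added after the values were seen. Values of a few listed genes and 1 promoter stretch are not reported here.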

Additional observations from a re-analysis of the deposited data

Results flagged for a closer look

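In 6 of 24 groups of 5 libraries (6 genes in 4 groups) the highest library lay far from the others by Dixon's criterion. About 1 in 20 groups, or 1.2, would be flagged if the groups were independent and the values normally distributed. The 6 genes share the same libraries, and several flags are the same library, so 6 against 1.2 is not a measure of excess. In WT hippocampus the library of mouse 4 was flagged for *Tcf7l2* (226 CPM, nearest other 4.45), *Lhx9* (54.5 CPM, nearest 25.9), *Lef1* (23.7 CPM, nearest 7.85) and *Calb2* (197 CPM, nearest 109.7). In Ube3aOE hippocampus mouse 10 was flagged for *Calb2* (279.7 CPM, nearest 139). In WT cortex mouse 3 was flagged for *Calb2* (41.2 CPM, nearest 31.2). The high *Tcf7l2*, *Lhx9*, *Lef1* and *Ntng1* of mice 7, 8 and 10 were not flagged, since 3 of the 5 libraries of that group were high. *Gbx2* and *Shox2* summed to 11.9 CPM in mouse 4 and 38.9 in mouse 10, and the part of thalamic tissue in these values was not tested.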

How the results depend on the processing

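The region call of the 6 members was the same with DESeq2, without TMM factors, without the filter and without each mouse in turn. With the mouse as a replicate block (paired by animal), 55.8% of genes and all 6 members passed, at 5.46 for *Lhx9*, 4.06 for *Tcf7l2*, 1.86 for *Calb2*, 1.69 for *Ntng1*, 1.40 for *Lef1* and 0.37 for *Prkcd*. The edgeR adjusted p values of the members were then larger, from 0.000118 to 0.0247. Without TMM factors 4876 genes were higher and 2927 lower in hippocampus, against 3963 and 4010. The number of genes passing between the genotypes in hippocampus was 1, and it was 2 with labelled sex as a covariate. That label went against the sex-linked genes in WT mice 3 and 5. The number was 0 without the libraries that stand apart (550 at an unadjusted p under 0.05). That fit held 2 Ube3aOE and 4 WT mice, and *Ube3a* did not pass in it either. In cortex it was 1, and 5 with DESeq2. Genes passing between the regions numbered 7284 to 7980 without each mouse. No member passed a genotype or interaction test under any alternative, and several differences, none past the threshold, changed sign. In hippocampus, *Lef1* was at -0.22 and *Ntng1* at -0.016 without the libraries that stand apart, which were the 4 highest for both genes. In cortex, *Calb2* was at -0.49 and *Ntng1* at -0.49, where the libraries left out, mice 8 and 9, were the highest for both genes. In the interaction, *Calb2* was at 0.58, *Lhx9* at 0.82 and *Lef1* at -0.33, and with the replicate block *Calb2* was at 0.0078. Without each mouse, *Calb2* ranged from -0.074 to 0.55 in hippocampus, and in cortex *Prkcd* from -0.10 to 0.042 and *Tcf7l2* from -0.047 to 0.19. For the interaction these ranges were -0.65 to 0.33 for *Calb2*, -0.27 to 0.037 for *Prkcd*, -0.0023 to 1.19 for *Lef1* and -0.44 to 0.91 for *Ntng1*. The cause was not tested. The level of the hippocampus line at a reference of 0 depended on the reference: for *Tcf7l2* it was 4.69% of the mean with *Gbx2* and *Shox2*, -105% with the thalamus list, -170.3% with the habenula list and -127% with both, and for *Prkcd* it stayed between 99.5% and 107%. The lines in cortex, where the thalamus list spans only 152 to 202 CPM, gave no usable level.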

Other observations

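In the region comparison 50.9% of all genes passed, 25.3% as higher. Of the other marker lists, all 6 dentate gyrus genes were higher in hippocampus (median 2.89 on the log2 scale), with *C1ql2* at 4.27 and *Eomes* at 4.13. Of 7 Cajal-Retzius genes 5 were higher and 0 lower (median 1.78), with *Trp73* at 1.91 and *Ebf3* at 1.78. Of 11 interneuron genes 4 were higher and 2 lower, with *Htr3a* at 1.12 and *Vip* at -1.20, a share near that of all genes. Of 9 oligodendrocyte genes tested 2 were higher, of 7 endothelial genes 1 was higher and 1 lower, of 5 choroid plexus genes tested 4 were higher, and of 8 striatal genes 2 were higher and 2 lower. Without the 6 libraries that stand apart, where 41.9% of all genes passed, 0 of 10 oligodendrocyte genes were higher, 2 of 8 striatal genes were higher and 0 lower, and the counts were 6 of 6 for the dentate gyrus, 6 of 7 for Cajal-Retzius cells and 4 of 5 for the choroid plexus. No gene of these lists passed between the genotypes. In the hippocampus of mice 4, 7, 8 and 10 the dentate gyrus list was at 224 to 257 CPM, inside the range of the other 6 (122 to 289), and so was the list of hippocampal fields in mice other than 8, where it reached 349 CPM against at most 316.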
